A study of Mus musculus with 4 samples.

Results

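The effect of adding local radiotherapy (RT) to PD-L1 blockade was measured in 20369 single CD8+ T cells, 9673 from mice given RT + αPD-L1 and 10696 from mice given αPD-L1 alone, out of 38297 cells kept in 4 treatment libraries. These were all cells of the 2 libraries that carried a single hashtag (an oligonucleotide-tagged antibody that marks the mouse of origin) and passed the quality limits. Barcodes with 2 or more Trdc UMIs, 2 or more Cd79a UMIs, or 3 or more H2-Aa and H2-Ab1 UMIs were left out as likely γδ T cells, B cells or antigen-presenting cells. A UMI is 1 counted RNA molecule. Counts were summed for each hashtag, which gave 5 mice per treatment.

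The cells were CD8+ PD-1+ CD44+ T cells sorted from the tumor-draining lymph node (TdLN) of C57BL/6 mice, female and bought at 6 weeks of age, that carried B16F10GP melanoma on both flanks. B16F10GP is the B16F10 mouse melanoma line made to express the glycoprotein of lymphocytic choriomeningitis virus, a foreign antigen that the host T cells can recognise. The right tumor alone was irradiated in the RT groups, with a single-fraction or a 3-fraction schedule that is not stated for these libraries, and αPD-L1 antibody was injected intraperitoneally. Nodes were taken 7 days after treatment, and the other 2 groups were an untreated Control and RT alone. Each treatment was run as 1 droplet library, so treatment and library cannot be told apart, and hashtag numbers name mice within a library without pairing them between libraries.

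The antigen-experienced CD8+ T cells of a draining node include stem-like cells that carry TCF-1, encoded by Tcf7, and can give rise to effector cells armed with granzymes and perforin. PD-L1 on other cells restrains them through PD-1. Type I and type II interferons act through STAT and IRF factors that bind the interferon-stimulated response element (ISRE) or the gamma-activated site (GAS) of target promoters, and these targets encode antiviral effectors, nucleic acid sensors, guanylate-binding proteins and parts of the class I presentation machinery. Such genes respond to interferon in nearly every cell type, T cells included.

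The 5 mice of the RT + αPD-L1 library gave 468 to 4693 cells and 3343814 to 38163808 UMIs each, and the αPD-L1 mice gave 807 to 4305 cells and 5674807 to 35527254 UMIs. Mouse 3 supplied 48.5% of the RT + αPD-L1 cells and mouse 2 supplied 40.2% of the αPD-L1 cells. Median depth per cell was 6292 and 6232 UMIs, and 163 barcodes occurred in both libraries. The CD8+ T cell part of the sorted identity held in the RNA. Cd8b1, the CD8 beta chain, lay between 1152.5 and 1379.5 CPM (UMIs scaled to a common library total per mouse) in RT + αPD-L1 and between 1166.9 and 1364.4 CPM in αPD-L1, and Cd3d and Cd3e of the T cell receptor complex were at similar levels in every mouse. Cd4 reached at most 1.59 CPM in any mouse of either group, and Tyrp1 of melanoma and Hbb-bs of red cells had no UMI in any of the 10 mice. Pdcd1, which encodes the PD-1 protein used in the sort, was at 16 to 65.2 CPM over the 10 mice. Cd44, the other sort marker, was at 49.7 to 75.4 CPM in RT + αPD-L1 and 51.9 to 65.8 CPM in αPD-L1. Without unsorted cells, these levels do not show whether the PD-1+ CD44+ part of the sort held.

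Interferon-stimulated genes were higher in mice given RT + αPD-L1 than in mice given αPD-L1 alone. Isg15, a ubiquitin-like antiviral protein, averaged 367.4 CPM in RT + αPD-L1 and 46.1 CPM in αPD-L1, and Ifit3, which binds foreign RNA complexes, averaged 164.4 and 15.6 CPM. Of 12049 genes tested with edgeR, 294 were called at an adjusted p below 0.05, 256 higher and 38 lower, which is a background of 2.44% of all genes, 2.12% higher and 0.315% lower. Of the 256 higher genes, 89 belonged to the 5 lists of interferon-pathway genes, as did 1 of the 38 lower genes. The fit used all 20 mice for its estimate of spread. It gave 1555 of the 12049 genes an unadjusted p below 0.05. That is the background for such edgeR counts of this comparison in the lists below. Without RT + αPD-L1 mouse 3 the background was 1400 of 12105 genes.

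The number of calls depended strongly on that estimate. Fitted on the 10 mice alone, edgeR called 1 gene, the pseudogene Rpl10-ps3, with 1135 genes at an unadjusted p below 0.05 and 124 at an adjusted p below 0.1. DESeq2 called 260 genes with all 20 mice and 148 with the 10 mice, and limma-trend called 131 and 1. For Isg15 the RT + αPD-L1 mice differed more among themselves than the other groups did. The SD of its log2 level was 1.57 in RT + αPD-L1, against 0.65 in αPD-L1, 0.54 in RT and 0.72 in Control. For that reason the values of the single mice are given beside many of the calls below, though not all. A call given without them does not show that every RT + αPD-L1 mouse lay outside the αPD-L1 range.

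The promoters of 4 of the antiviral genes with large rises are shown because they hold matches to the core of the ISRE, which the interferon-activated factors bind. Each is RefSeq sequence of the GRCm38.p6 build, 300 bases from 250 before to 50 after the annotated start, written 5′ to 3′ on the gene's own strand, with the ISRE core matches in capitals.
Isg15, chr4:156200769-156201068, minus strand: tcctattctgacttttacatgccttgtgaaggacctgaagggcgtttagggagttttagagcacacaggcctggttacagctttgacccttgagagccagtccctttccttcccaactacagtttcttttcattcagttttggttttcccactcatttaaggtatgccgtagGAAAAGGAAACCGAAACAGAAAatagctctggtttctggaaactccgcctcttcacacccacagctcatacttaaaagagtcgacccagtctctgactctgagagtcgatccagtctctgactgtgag
Ifit1, chr19:34640639-34640938, plus strand: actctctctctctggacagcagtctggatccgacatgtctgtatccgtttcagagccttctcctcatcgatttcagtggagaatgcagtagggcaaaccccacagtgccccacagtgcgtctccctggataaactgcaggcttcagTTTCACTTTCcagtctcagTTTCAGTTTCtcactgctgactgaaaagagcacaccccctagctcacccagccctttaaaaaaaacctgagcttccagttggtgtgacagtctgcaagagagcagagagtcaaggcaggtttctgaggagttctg
Ifit3, chr19:34583279-34583578, plus strand: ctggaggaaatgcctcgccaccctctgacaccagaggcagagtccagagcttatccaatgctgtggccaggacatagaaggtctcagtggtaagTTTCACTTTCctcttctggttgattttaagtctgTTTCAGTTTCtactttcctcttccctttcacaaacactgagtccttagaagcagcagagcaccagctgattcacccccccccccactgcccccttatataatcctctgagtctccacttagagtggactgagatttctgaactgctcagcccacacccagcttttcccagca
Rsad2, chr12:26456403-26456702, minus strand: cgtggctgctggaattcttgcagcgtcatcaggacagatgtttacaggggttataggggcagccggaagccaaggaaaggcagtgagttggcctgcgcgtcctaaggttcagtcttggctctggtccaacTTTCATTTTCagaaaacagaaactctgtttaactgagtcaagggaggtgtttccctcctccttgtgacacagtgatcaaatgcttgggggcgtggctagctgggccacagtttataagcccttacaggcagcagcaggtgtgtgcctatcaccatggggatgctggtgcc
The ISRE core searched was GAAANNGAAA on both strands. It matched 3 overlapping times in Isg15, where the first match began 78 bases before the start, and 2 times each in Ifit1 and Ifit3. It matched 1 time in Rsad2, 120 bases before the start. The 4 promoters shown were picked for holding a match. Of other genes called higher, Ifitm3 and Ifit3b had 2 matches each, and Oasl2, Oasl1, Trim30c, Irf7 and Gzmb had 0. The core was present in 65 of the 203 higher genes with a promoter in the reference table (32%), in none of 29 lower genes, and in 19 of 44 antiviral effector genes (43.2%), against 356 of 9240 tested genes (3.85%) and 3.44% of all 32851 promoters of the same length. The GAS core TTCNNNGAA, which can overlap an ISRE match, was present in 28 of 203 higher genes (13.8%), 8 of 44 antiviral genes (18.2%) and 8.28% of tested genes. A match describes these windows only and was given no test.

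Among the antiviral effectors, 42 of 47 tested genes rose and 1 fell, with a median log2 change of 1.45 against -0.01 over all tested genes. Leaving out RT + αPD-L1 mouse 3, the mouse with the most cells, left 38 higher and 1 lower, with a median of 1.13. DESeq2 called 43 higher and 1 lower, limma-trend 30 and 1, DESeq2 on the 10 mice 32 of 46 higher and 1 lower, and edgeR on the 10 mice 0 of 46, where 43 had an unadjusted p below 0.05. At least 4 of the 5 RT + αPD-L1 mice lay above every αPD-L1 mouse for 41 of the 47 genes, as against 588 of all 12049 genes.

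Isg15 lies on chromosome 4 at 156199424-156200818 (GRCm38, GENCODE, minus strand). It stood at 52.0, 586.2, 822.8, 182.0 and 193.7 CPM in RT + αPD-L1 mice 1 to 5 and at 26.6, 90.9, 39.0, 35.8 and 38.3 CPM in αPD-L1 mice 1 to 5. Mice 2 and 3 were far above the rest, mice 4 and 5 were intermediate, and mouse 1 lay below the highest αPD-L1 mouse, so the groups overlapped in that animal alone. The log2 change was 2.98 ± 0.51 (SE, n = 5 and 5, edgeR adjusted p = 0.00163), and an exact 2-sided permutation test on the CPM gave p = 0.0159, where the smallest p possible is 0.00794.

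Rsad2, on chromosome 12 at 26442746-26456452 (minus strand), encodes viperin, an enzyme that makes a chain-terminating nucleotide. It was at 0.598, 106.0, 101.5, 23.1 and 22.6 CPM in the 5 RT + αPD-L1 mice and between 1.02 and 6.02 CPM in the αPD-L1 mice. Mouse 1 was below every αPD-L1 mouse, whereas the other 4 were above all of them. The log2 change was 4.14 ± 0.64 (edgeR adjusted p = 0.00143), with an exact permutation p of 0.0476 on the CPM.

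Ifit3, on chromosome 19 at 34583531-34588731 (plus strand), was at 21.5, 285.1, 322.1, 101.7 and 91.5 CPM with RT + αPD-L1 and at 8.46 to 33.4 CPM with αPD-L1. Its neighbours Ifit3b and Ifit1 followed the same order of mice. Ifit3b rose by 3.74 ± 0.59 and Ifit1 by 3.07 ± 0.51 on the log2 scale, with edgeR adjusted p = 0.00143 and 0.00146. Ifit3 and Ifit3b are close copies, and their reads may be shared between them.

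Of the 7 listed genes of the oligoadenylate synthetase family, which senses double-stranded RNA, 5 were tested and each rose. Oas2 went from a mean of 1.31 to 13.5 CPM (log2 change 3.43 ± 0.49, edgeR adjusted p = 0.000931), Oasl2 from 4.45 to 42.3 CPM (3.20 ± 0.48) and Oasl1 from 2.91 to 23.6 CPM (3.04 ± 0.50). RT + αPD-L1 mouse 1 was within the range of the αPD-L1 mice for Oasl2 and below all of them for Oasl1. Ifitm3, a membrane protein that blocks viral entry, was at 67.3 CPM in mouse 3, at 1.79 to 10.5 CPM in the other 4, and at 0.352 to 3.73 CPM with αPD-L1. Its log2 change of 3.76 ± 0.73 (edgeR adjusted p = 0.00424) became 2.03 without mouse 3. Trim30c rose by 2.60 ± 0.44, Ifitm1 had a log2 change of 0.92 ± 0.56 that was not called (edgeR adjusted p = 0.557), and Ifi27, an interferon-induced mitochondrial protein, was the member that fell, by 0.39 ± 0.09 (edgeR adjusted p = 0.0196). Ifi27 stood at 174.4 CPM in RT + αPD-L1 mouse 1, inside the αPD-L1 range of 166.1 to 178.7 CPM, and at 96.4 to 141.6 CPM in the other 4 mice.

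**Figure D1:**
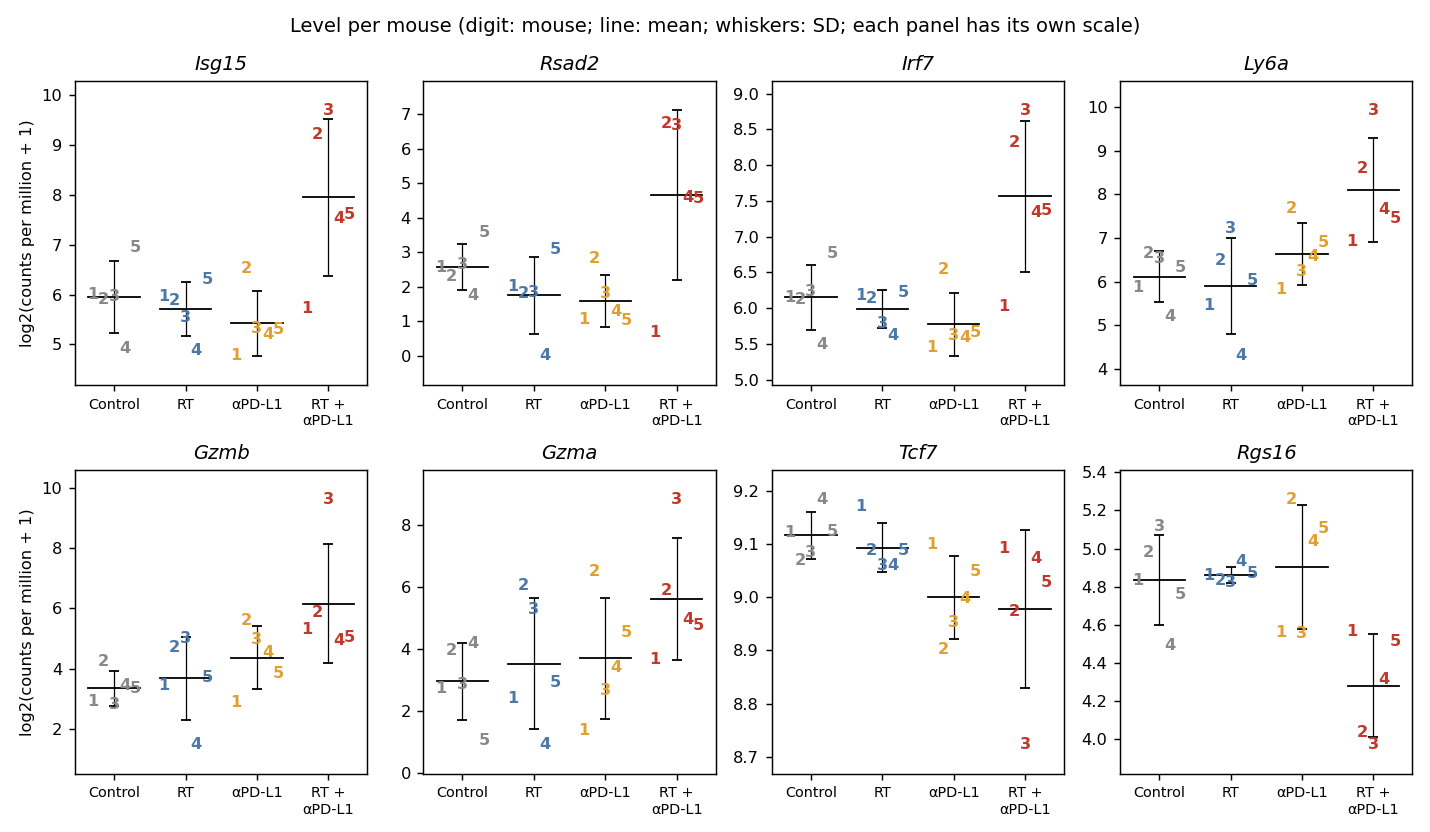
Level of 8 genes in each mouse, as log2(CPM + 1) on the vertical axis, by treatment group on the horizontal axis. Digits are mice, lines are group means and whiskers are the SD over 5 mice. For Isg15, Rsad2 and Irf7, RT + αPD-L1 mice 2 to 5 sit above every other mouse of the plot and mouse 1 does not, whereas for Gzmb mouse 3 stands alone at 790.8 CPM.

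The sensors and the signalling genes upstream of these effectors changed in part. Of the nucleic acid sensors, 9 of 13 tested genes rose, with a median log2 change of 0.90. Dhx58 (LGP2, a helicase of the RIG-I family) rose by 2 ± 0.31, Ifih1 (MDA5) by 1.80 ± 0.31 and the endosomal RNA receptor Tlr7 by 1.73 ± 0.27, each with an edgeR adjusted p of 0.00163 or less. Cgas, the cytosolic DNA sensor, was at 7.38 and 6.07 CPM and was not called (0.38 ± 0.18, edgeR adjusted p = 0.363). Of the interferon receptors, kinases and factors, 5 of 22 rose, with a median of 0.17.

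Irf7, the factor that amplifies type I interferon responses, was at 64.3, 318.1, 434.2, 160.6 and 163.8 CPM in RT + αPD-L1 and at 42.8 to 92.0 CPM in αPD-L1. Again mouse 1 was the only one inside the αPD-L1 range. Its log2 change was 2.05 ± 0.34 (edgeR adjusted p = 0.00146; exact permutation p = 0.0159). Usp18, which switches off type I receptor signalling, rose by 2.88 ± 0.47 from 13.6 to 101.6 CPM. For Usp18, RT + αPD-L1 mouse 1 was at 14.7 CPM, inside the αPD-L1 range of 8.81 to 24.8 CPM. Stat2 was at 26.3, 57.8, 64.2, 30.2 and 30.7 CPM against 16.3 to 20.7 CPM, so that all 5 mice were above all αPD-L1 mice. It rose by 1.31 ± 0.20 (edgeR adjusted p = 0.00133; exact permutation p = 0.00794, the smallest possible). Over all tested genes, 207 (1.72%) had groups that did not overlap, among them 75 of the 256 higher and 15 of the 38 lower genes.

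The p200, Schlafen and PARP families had 19 of 20 tested genes higher, with a median of 0.99. Ifi204, a DNA-binding p200 protein, was at 1.20, 6.59, 20.3, 1.24 and 1.44 CPM against at most 0.591 CPM in any αPD-L1 mouse (log2 change 4.18 ± 0.69, edgeR adjusted p = 0.00146). Slfn5 rose by 2.22 ± 0.33 and Parp12, an antiviral mono-ADP-ribosyltransferase, by 2.12 ± 0.36. Parp8 was the member not called, at 22.3 and 21.0 CPM. Of the guanylate-binding and immunity-related GTPases, which attack the vacuoles of intracellular pathogens, 14 of 17 rose, with a median of 1.04, and 7 of 17 without RT + αPD-L1 mouse 2 or mouse 3, up to 17 without mouse 1. Gbp10 rose by 2.20 ± 0.37, Iigp1 by 2.03 ± 0.40 and Irgm2 by 1.55 ± 0.28, and the groups of Iigp1 and Irgm2 did not overlap. Gvin1 was not called (0.77 ± 0.25, edgeR adjusted p = 0.136). Members of these families are near copies of each other, and counts may be split between them.

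Class I presentation genes shifted by smaller amounts. Of 22 tested genes, 6 rose, 21 had a log2 change above 0 and the median was 0.22. The count went to 4 without RT + αPD-L1 mouse 2 or mouse 3 and to 12 without mouse 1. Tapbp (tapasin, which loads peptides) was at 209.9, 308.1, 353.5, 239.1 and 255.7 CPM against 177.9 to 206.7 CPM, without overlap, and rose by 0.52 ± 0.11 (edgeR adjusted p = 0.00723). The nonclassical class I genes H2-T22 and H2-T23 rose by 0.51 ± 0.10 and 0.50 ± 0.10. H2-K1, a classical class I heavy chain, had means of 2974.5 and 2611.7 CPM and was not called (0.19 ± 0.05, edgeR adjusted p = 0.0568), nor was B2m, its light chain (0.15 ± 0.06, edgeR adjusted p = 0.263), nor the immunoproteasome subunit Psmb10 (0.40 ± 0.12, edgeR adjusted p = 0.0974). Cd274, which encodes PD-L1 itself, was at 20.6, 44.8, 48.6, 22.2 and 23.5 CPM against 19.7 to 28.2 CPM (0.64 ± 0.19, edgeR adjusted p = 0.0937). RT + αPD-L1 mice 2 and 3 were the only ones above the αPD-L1 range for this gene.

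**Figure D2:**
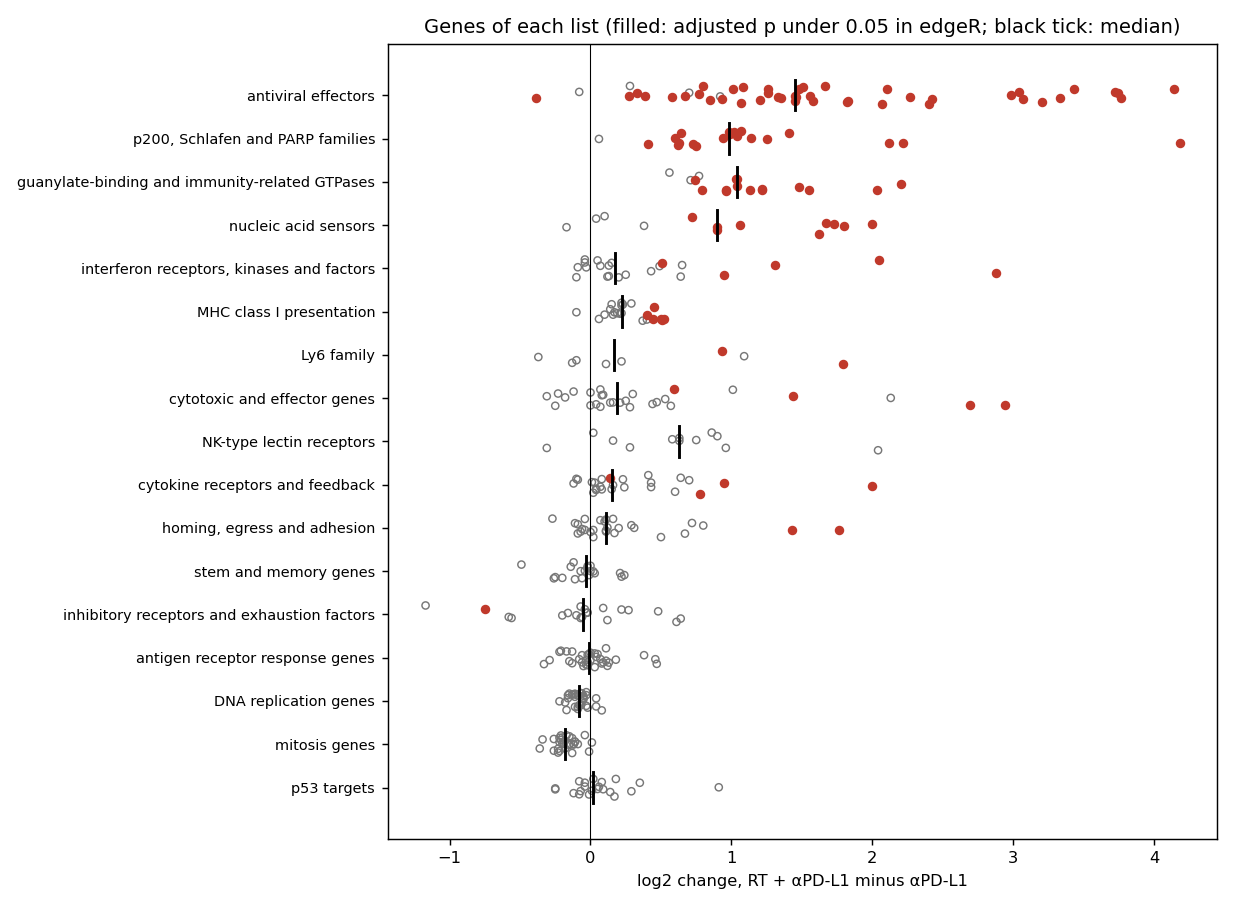
Log2 change of every tested gene of 17 lists, RT + αPD-L1 minus αPD-L1, on the horizontal axis. Filled points passed an adjusted p of 0.05 in edgeR fitted on all 20 mice, open points did not, and black ticks are list medians. The antiviral list is centred at 1.45, class I presentation at 0.22, and stem and memory genes at -0.03.

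The mice of the RT + αPD-L1 group kept nearly the same order across the antiviral list. Mouse 3 was the highest of the 5 for 42 of 47 genes and mouse 1 the lowest for 44, whereas over all 12049 genes mouse 3 was highest for 2481 and mouse 1 lowest for 2953. The summed level of the list was 6352.0, 12085.8, 15472.4, 8986.1 and 8953.6 CPM in RT + αPD-L1 and 5336.2, 7571.9, 5374.3, 5896.0 and 6164.7 CPM in αPD-L1. Control mice ranged from 5290.7 to 6954.1 CPM and RT mice from 5290.6 to 6321.3 CPM. In αPD-L1, mouse 2 was highest for 39 of the 47 genes and was also the mouse with the most cells. Whether the number of cells in a mouse had a part in its level was not tested. With at most 1000 cells drawn per mouse, 201 genes were called, 183 of them higher.

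The antiviral level was also read cell by cell. The median cell held 65.6, 99.0, 148.5, 83.9 and 85.2 antiviral UMIs per 10000 UMIs in RT + αPD-L1 mice 1 to 5 and 54, 72.5, 53, 58.2 and 65 in αPD-L1 mice 1 to 5. The 10th percentile of cells was 65.4 in RT + αPD-L1 mouse 3 and 35.3 to 44.2 in the other 4, against 29.9 to 39.0 in αPD-L1 mice. The 90th percentile was 264.1 and 302.0 in mice 2 and 3, 174.0 and 170.5 in mice 4 and 5, and 104.5 in mouse 1, against 86.7 to 131.6 with αPD-L1. Cells at both ends of the range were therefore higher in mice 2 to 5, and mouse 1 lay inside the αPD-L1 range at both ends.

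**Figure D3:**
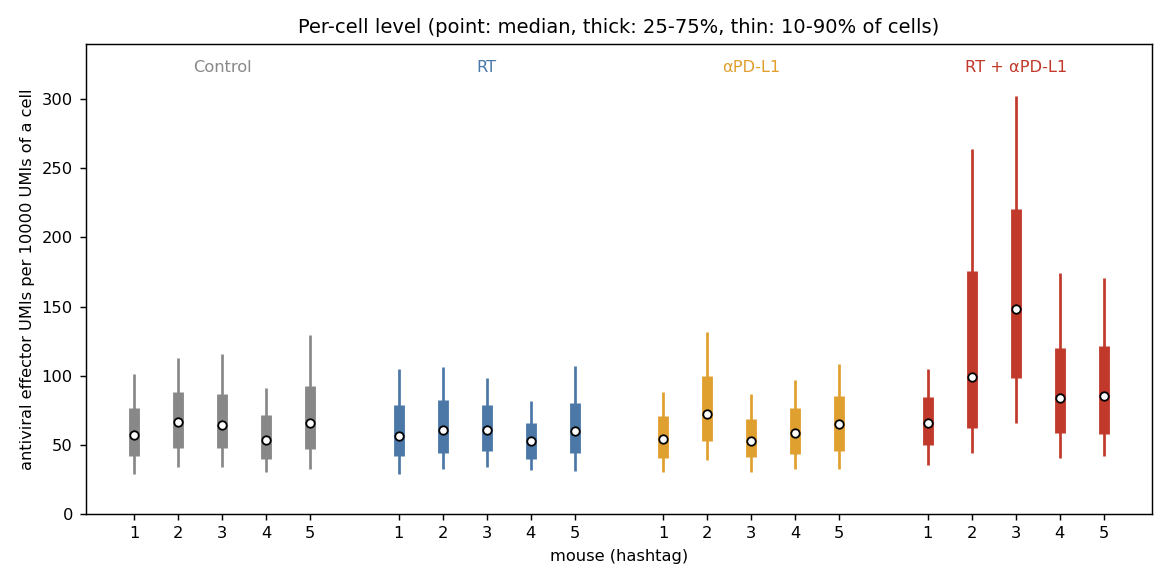
Antiviral effector UMIs per 10000 UMIs of a cell, for each mouse of the 4 groups. Points are medians, thick bars span the 25th to the 75th percentile of cells and thin bars the 10th to the 90th percentile. The medians of RT + αPD-L1 mice 2 to 5 lie between 83.9 and 148.5, above all 15 mice of the other groups.

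The rise was also tested within subsets of the cells. Among cells with no Gzma or Gzmb UMI, edgeR called 441 of 11851 genes (3.72%), 320 higher and 121 lower, and 45 of 47 antiviral genes rose. Among cells with a Tcf7 UMI it called 306 of 11899 genes (2.57%), 258 higher and 48 lower, and 42 of 47 antiviral genes rose. The log2 change of Isg15 was 2.88 ± 0.47 in the first set and 2.95 ± 0.51 in the second (edgeR adjusted p = 0.000792 and 0.00162). The mean antiviral level per 10000 UMIs was 67.9, 141.5, 188.6, 103.6 and 97.2 in cells with a granzyme UMI of RT + αPD-L1 mice 1 to 5, and 68.6, 126.2, 158.0, 96.0 and 97.2 in cells without one. It was higher with a granzyme UMI in mice 2, 3 and 4, lower in mouse 1 and equal in mouse 5. The granzyme choice removed unequal parts of the groups. Cells with a granzyme UMI ranged from 67 of 468 in mouse 1 to 1777 of 4693 in mouse 3 of RT + αPD-L1. In αPD-L1 they ranged from 26 of 821 in mouse 1 to 372 of 4305 in mouse 2. The calls among cells without granzyme UMIs therefore compare differently selected cells.

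The share of cells with at least 1 UMI was compared after each cell was thinned to 3000 UMIs, with exact permutation tests over 13 shares. The 5 shares that passed were those of Isg15, Ly6a, Gzma, Gzmb and Tcf7 with Ly6a. None of the 5 passed when cells were thinned to 1500 UMIs (adjusted p = 0.0619), when an αPD-L1 mouse was left out (0.0774 to 0.165), or without RT + αPD-L1 mouse 2 (0.0516) or mouse 3 (0.0619). Isg15 was found in 14.7, 50.7, 68.0, 30.1 and 34.7% of cells in RT + αPD-L1 mice 1 to 5 and in 6.76 to 18% in αPD-L1 mice. The means were 39.65 ± 20.4% and 10.8 ± 4.31% (SD, n = 5 and 5, exact permutation p = 0.0159, adjusted p = 0.0413). Control mice had 9.30 to 21.3% and RT mice 9.40 to 13.7%. As a check of free RNA, 9 of 50 barcodes with B cell RNA, pooled over the 4 libraries with median depths of 5103 to 6561 UMIs, held an Isg15 UMI (18%), a gene that B cells can also express. They were 6 of 12 in the RT + αPD-L1 library (50%, exact 95% interval 21.1 to 78.9%), 3 of 20 in αPD-L1, none of 11 in RT and none of 7 in Control, where the intervals reach 28.5 and 41.0%. Of the RT + αPD-L1 mice, 2 and 3 were above the 50% of their own library and mice 1, 4 and 5 below it, so these barcodes give no clean background for the gene.

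Ly6a, which encodes Sca-1, a surface protein of stem and memory lymphocytes that also responds to interferon, was at 119.9, 385.0, 971.4, 200.3 and 172.8 CPM in RT + αPD-L1 and at 55.3, 203.7, 74.0, 94.3 and 117.9 CPM in αPD-L1. RT + αPD-L1 mice 2 and 3 exceeded every αPD-L1 mouse, and the other 3 lay below αPD-L1 mouse 2 and above the remaining αPD-L1 mice. The log2 change was 1.79 ± 0.47 (edgeR adjusted p = 0.0454; exact permutation p = 0.0556), and it became 1.03, without a call, when mouse 3 was left out (edgeR adjusted p = 0.242). DESeq2 gave an adjusted p of 0.0654. Cells with a Ly6a UMI made up 33.44 ± 15.54% against 15.98 ± 4.72% (exact permutation p = 0.0159, adjusted p = 0.0413). Cells with UMIs of both Tcf7 and Ly6a made up 13.3, 27.3, 36, 18.7 and 16.9% against 7.69 to 15.3% (exact permutation p = 0.0159, adjusted p = 0.0413). Of the B cell barcodes 62.0% held a Ly6a UMI and 8.0% held both Tcf7 and Ly6a UMIs. B cells can express Ly6a themselves, so its own share has no clean background here.

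Ly6c2, a memory and interferon-responsive marker of CD8+ T cells, went from 489.7 to 920.9 CPM (0.93 ± 0.25, edgeR adjusted p = 0.047), and to a log2 change of 0.58, without a call, when mouse 3 was left out (edgeR adjusted p = 0.191). It was at 389.7 CPM in mouse 1 and 1709.1 CPM in mouse 3. Of the 8 tested Ly6 genes, those 2 rose, and Ly6c1 was not called (1.09 ± 0.39, edgeR adjusted p = 0.19). Ly6 genes are close relatives, and counts may be split between them. Leaving out 1 mouse kept the call of Ly6a in 6 of 20 fits and that of Ly6c2 in 3 of 20, and the calls were also lost in fits without a Control mouse. Without mouse 3 none of the 8 passed in edgeR, with 2 at an unadjusted p below 0.05, and DESeq2 and limma-trend called none with all mice.

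The calls among effector genes depended on single mice. Gzmb, encoding the protease granzyme B, was at 38.6, 56.8, 790.8, 29.8 and 31.4 CPM in RT + αPD-L1 and at 6.34, 47.1, 29.9, 21.9 and 13.2 CPM in αPD-L1. Mouse 3 stood far above every other mouse. Mouse 2 was also above every αPD-L1 mouse, and the rest of the RT + αPD-L1 mice lay inside the αPD-L1 range. The log2 change of 2.94 ± 0.75 (edgeR adjusted p = 0.0379) became 0.59 without mouse 3 (edgeR adjusted p = 0.625), was called in 15 of the 20 fits that left out 1 mouse, and had an exact permutation p of 0.0794 on the CPM. The share of cells with a Gzmb UMI was nevertheless higher in each RT + αPD-L1 mouse, at 5.83, 7.16, 23.2, 5.63 and 6.90%, than in each αPD-L1 mouse, at 1.19 to 3.73%. That difference had an exact permutation p of 0.00794 (adjusted p = 0.0413), the smallest possible. Thinned to 1500 UMIs the Gzmb groups overlapped (exact permutation p = 0.0159, adjusted p = 0.0619). Control mice had 0.809 to 1.80% and RT mice 0.855 to 2.71%. Of the B cell barcodes, 2 of 50 held a Gzmb UMI, both among the 12 of the RT + αPD-L1 library (16.7%, exact 95% interval 2.1 to 48.4%). Only mouse 3 was above that 16.7%, and its 23.2% also lay below the upper limit of 48.4%. With 12 barcodes the Gzmb share of no RT + αPD-L1 mouse could be told from free RNA.

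Gzma (granzyme A) was at 456.0 CPM in mouse 3 and 11.7 to 57.6 CPM in the other 4, against 1.59 to 90.2 CPM with αPD-L1, and was not called (2.13 ± 0.87, edgeR adjusted p = 0.28). Its share of cells was 3.73, 4.47, 15.7, 3.32 and 3.68% against 0.531 to 3.40%. The mean shares were 6.18 ± 5.33% and 1.40 ± 1.17% (exact permutation p = 0.0159, adjusted p = 0.0413). None of the 50 B cell barcodes held a Gzma UMI, but only 12 came from the RT + αPD-L1 library, where the exact interval reached 26.5%. That limit lies above the Gzma share of every mouse, so with 12 barcodes these shares could not be told from free RNA. Gzmc rose by 2.69 ± 0.65 from 0.443 to 2.11 CPM, on 7.78 CPM in mouse 3, and Plac8 rose by 1.44 ± 0.35 (edgeR adjusted p = 0.0246). Both lost their calls without mouse 3 (edgeR adjusted p = 0.539 and 0.103). In all, 4 of 28 cytotoxic and effector genes rose, with a median of 0.18, and none without mouse 3 or without αPD-L1 mouse 4 in edgeR. Without mouse 3, 4 had an unadjusted p below 0.05 and the median was -0.04, and without αPD-L1 mouse 5 the count was 1. limma-trend called none with all mice and DESeq2 3. Prf1 (perforin) had means of 26.3 and 26 CPM (0.07 ± 0.15, edgeR adjusted p = 0.991), and Ifng, encoding interferon-γ, was at 75.3 and 58.1 CPM (0.44 ± 0.27, edgeR adjusted p = 0.553).

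The NK-type lectin receptors, found on effector CD8+ T cells, were highest in mouse 3 for 11 of 12 tested genes. None of the 12 was called by edgeR, DESeq2 or limma-trend, 4 had an unadjusted p below 0.05 in edgeR, and the median was 0.63, which went to 0.04 without mouse 3. Klrg1 was at 18.6 CPM in mouse 3 and 0.299 to 2.66 CPM in the others, and its log2 change of 2.04 ± 0.73 became 0.08 without mouse 3. Klrk1 (NKG2D) had a log2 change of 0.86 ± 0.33 (edgeR adjusted p = 0.233) and Klrc1 (NKG2A) of 0.90 ± 0.43 (edgeR adjusted p = 0.388). Of the effector and memory transcription factors none of 18 was called by any of these tools, 3 had an unadjusted p below 0.05 in edgeR, and Tbx21 (T-bet) had a log2 change of 0.53 ± 0.32 (edgeR adjusted p = 0.546).

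**Figure D4:**
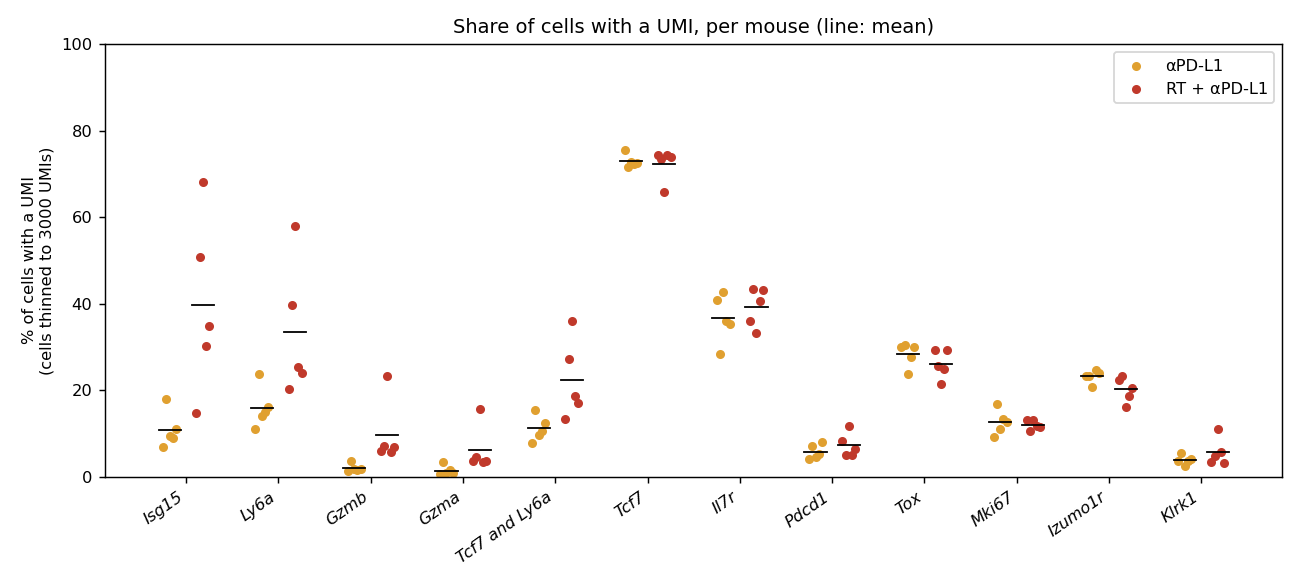
Share of cells with a UMI of each gene, in percent, after thinning every cell to 3000 UMIs. Points are the 5 mice of αPD-L1 and of RT + αPD-L1, and lines are means. The Gzmb shares do not overlap, at 5.63 to 23.2% against 1.19 to 3.73%, while the mean Tcf7 share is 72.35 and 72.91% and the lowest, at 65.8%, is in RT + αPD-L1 mouse 3.

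None of the stem-like and memory genes was called. Tcf7 was at 544.3, 501.4, 421.7, 537.5 and 521.2 CPM in RT + αPD-L1 and at 477.2 to 547.7 CPM in αPD-L1 (-0.02 ± 0.05, edgeR adjusted p = 1), and mouse 3 alone fell outside the αPD-L1 range. The share of cells with a Tcf7 UMI was 72.35 ± 3.66% against 72.91 ± 1.49% (exact permutation p = 0.905). The shares with UMIs of Il7r, Pdcd1, Tox, Mki67, Klrk1 and Izumo1r did not pass either, the smallest exact permutation p being 0.0714 for Izumo1r, at 20.21 ± 2.88% against 23.15 ± 1.47%. Il7r, the survival cytokine receptor of memory cells, had a log2 change of 0.24 ± 0.14 and the node-homing receptor Ccr7 of 0.10 ± 0.09. Sox4 was not called either, -0.49 ± 0.17 (edgeR adjusted p = 0.166). None of 20 genes was called by edgeR, DESeq2 or limma-trend, with 3 at an unadjusted p below 0.05 in edgeR.

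Among inhibitory receptors and exhaustion factors 1 of 20 genes passed, and it fell. Rgs16, a brake on chemokine receptor signalling, was at 22.7, 15.4, 14.7, 18.9 and 21.8 CPM with RT + αPD-L1 and at 22.6, 37.3, 22.5, 31.8 and 33.4 CPM with αPD-L1. The groups met only at 22.5 to 22.7 CPM, and the log2 change was -0.75 ± 0.13 (edgeR adjusted p = 0.00166; exact permutation p = 0.0238), which remained called in all 20 fits that left out 1 mouse. Tox2 had a log2 change of -1.17 ± 0.33 (edgeR adjusted p = 0.0666), and Tox, the factor of exhaustion programs, of -0.16 ± 0.07 (edgeR adjusted p = 0.31). Pdcd1 was at 65.2 CPM in mouse 3 and 21.4 to 26.5 CPM in the other 4, against 16 to 33.6 CPM (0.48 ± 0.27, edgeR adjusted p = 0.488). Havcr2 (TIM-3) was at 5.83 and 5.09 CPM and Lag3 at 75.2 and 81.9 CPM, and neither was called. Izumo1r (folate receptor 4) was at 79.4 to 111.5 CPM against 112 to 143.2 CPM, without overlap between groups, yet was not called (-0.35 ± 0.11, edgeR adjusted p = 0.142; exact permutation p = 0.00794).

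Of the anergy genes 1 of 13 passed. Nrgn, a calmodulin-binding protein, was at 53.5, 28.2, 36.6, 43.9 and 61.7 CPM against 62.5 to 85.4 CPM, without overlap, and fell by 0.74 ± 0.20 on the log2 scale (edgeR adjusted p = 0.0447). Leaving out 1 mouse kept the call in 7 of 20 fits, and without mouse 3 the log2 change was -0.69 (edgeR adjusted p = 0.129). Nrn1 was not called (-0.44 ± 0.20, edgeR adjusted p = 0.355). None of 35 antigen receptor response genes was called by edgeR, DESeq2 or limma-trend, with 3 at an unadjusted p below 0.05 in edgeR and a median of -0.01. Fosl2 was among them (0.47 ± 0.15, edgeR adjusted p = 0.126).

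Cytokine receptors and their feedback genes had 4 of 25 members higher, with a median of 0.15. Il12rb2 and Il12rb1, the chains of the interleukin-12 receptor, rose by 2 ± 0.53 and 0.78 ± 0.20, and Socs3, an inhibitor of cytokine signalling, by 0.95 ± 0.25 (edgeR adjusted p = 0.0458, 0.0352 and 0.0468). Il12rb2 was at 36.3 CPM in mouse 3, 7.10 CPM in mouse 2 and 2.57 to 3.46 CPM in the other 3. None of the 25 passed in edgeR without RT + αPD-L1 mouse 2 or 3 or αPD-L1 mouse 3, 4 or 5, and 1 or 2 passed when a single Control or RT mouse was left out. Without RT + αPD-L1 mouse 3, 7 were at an unadjusted p below 0.05, limma-trend called none with all mice and DESeq2 2. Socs2 was not called (0.70 ± 0.27, edgeR adjusted p = 0.234), nor was Il18rap (0.60 ± 0.20, edgeR adjusted p = 0.135).

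For homing and adhesion 2 of 28 genes rose. Cxcl10, a ligand of CXCR3 and an interferon target, was at 14.7, 82.1, 104.6, 15.1 and 17.6 CPM against 10.3 to 18.7 CPM, so that mice 2 and 3 alone were above the αPD-L1 range (1.76 ± 0.45, edgeR adjusted p = 0.037). Ccrl2, an atypical chemoattractant receptor, rose by 1.43 ± 0.31 (edgeR adjusted p = 0.0121) on 9.17 and 13.5 CPM in mice 2 and 3 and 2.99 to 3.60 CPM in the others. Without mouse 3 neither passed (edgeR adjusted p = 0.206 and 0.115). Cxcr3, at 107.5 and 100.1 CPM, Icam1, at 48.3 and 40.9 CPM, and S1pr5, at 0.962 and 0.522 CPM, were not called.

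Proliferation genes were not called. Of 30 mitosis genes 29 had a log2 change below 0, with a median of -0.18, and of 32 DNA replication genes 29, with a median of -0.08. edgeR, DESeq2 and limma-trend called none, and edgeR gave 3 in each list an unadjusted p below 0.05. Their summed level was highest in αPD-L1 mouse 2, at 3798.8 CPM for mitosis against 2009.4 to 2825.8 CPM in the other 4 and 2193.3 to 2936.8 CPM in RT + αPD-L1. Mki67 had a log2 change of -0.18 ± 0.12, Cdc20 of -0.36 ± 0.15 and Uhrf1 of -0.22 ± 0.10. Among cells without a granzyme UMI 5 mitosis genes and 2 replication genes were lower, Cdc20 among them (-0.58 ± 0.13, edgeR adjusted p = 0.0148). That choice of cells left out a larger part of each RT + αPD-L1 mouse than of any αPD-L1 mouse. In RT + αPD-L1 mouse 3, Mki67 was at 145.0 CPM in all cells and 95.1 CPM in those without a granzyme UMI. The part of this choice in the lower values was not tested. None of 21 p53 targets, which report DNA damage, was called by the 3 tools, with 4 at an unadjusted p below 0.05 in edgeR, and Cdkn1a (p21) was at 3.04 and 2.11 CPM.

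Slc2a1, the glucose transporter, was the 1 glycolysis gene of 16 to pass, higher by 0.17 ± 0.04 (edgeR adjusted p = 0.0427) at 41.9 to 46.4 CPM against 38.1 to 40.0 CPM. DESeq2 and limma-trend did not call it (adjusted p = 0.0976 and 0.0814), and edgeR did in 12 of the 20 fits that left out 1 mouse. Hk2 was not called (0.54 ± 0.18, edgeR adjusted p = 0.135). None of 10 chaperones was called by the 3 tools, with 2 at an unadjusted p below 0.05 in edgeR, and Hspa1b was at 1.62 and 1.22 CPM. None of 17 survival genes was called by edgeR or limma-trend and 1 by DESeq2, with 5 at an unadjusted p below 0.05 in edgeR, and Casp4 had a log2 change of 0.77 ± 0.23 (edgeR adjusted p = 0.0935).

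Of the 38 genes that fell, 3 fell by 1 or more on the log2 scale, all with means of at most 1.07 CPM in either group. These were Adamts3 (-1.29 ± 0.31), Rnf39 (-1.28 ± 0.28) and Pla2g4b (-1.01 ± 0.25), singled out after their values were seen. The falls at 10 CPM or more were smaller. Rpl10-ps3, a processed pseudogene of a ribosomal protein on chromosome 9 at 50344201-50344968 (minus strand), was at 65.9 to 74.2 CPM against 101.7 to 114.6 CPM and fell by 0.64 ± 0.06 (edgeR adjusted p = 6.73e-06), the only gene called when the 10 mice were fitted alone. Control mice stood at 75.4 to 84.9 CPM and RT mice at 80.2 to 101.1 CPM, between the 2 groups compared. The sequence of Rpl10-ps3 is near that of its parent gene, so the assignment of its reads is uncertain. Foxd2os fell by 0.42 ± 0.08, the dynein chain Dnah8 by 0.37 ± 0.06, Frrs1 by 0.33 ± 0.07, Acyp1 by 0.31 ± 0.08 and the chaperone Hspa4l by 0.31 ± 0.08. Dpysl2 fell by 0.30 ± 0.07, the axonemal assembly factor Dnaaf5 by 0.28 ± 0.07 and Tnfaip8l1 by 0.27 ± 0.06, with edgeR adjusted p values of 0.00143 to 0.0447 for these 8 genes.

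CD4 and regulatory T cell markers summed to 14.5 to 26.6 CPM in RT + αPD-L1 and 18.5 to 24.1 CPM in αPD-L1, B cell markers to 233.5 to 303.2 and 275.6 to 296.6 CPM, and melanoma markers to 1.24 to 2.09 and 1.07 to 2.29 CPM. Of the plasmacytoid markers 1 of 5 rose, Bst2 (tetherin), which is itself an interferon target (1.58 ± 0.28, edgeR adjusted p = 0.00211), while Siglech, the defining gene, had 3 UMIs over the 5 RT + αPD-L1 mice. None of 4 NK cell markers was called by edgeR, DESeq2 or limma-trend, with 3 at an unadjusted p below 0.05 in edgeR. Their sum reached 43.9 CPM in RT + αPD-L1 mouse 3, against 6.88 to 22.2 CPM in the other 4 and 7.68 to 15.9 CPM in αPD-L1, with Ncr1 at no more than 0.717 CPM. Lyz2 of myeloid cells went to 47.6 CPM and Itgax to 8.18 CPM at their highest in RT + αPD-L1, against 20.7 and 3.66 CPM in αPD-L1, and the summed dendritic cell and monocyte markers ranged from 121.8 to 176.8 and from 117.9 to 145.4 CPM. Their part in the rises of effector and interferon genes was not tested.

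Trgv2, a γ chain segment of the T cell receptor, rose by 0.97 ± 0.26 (edgeR adjusted p = 0.0447; 0.215 without mouse 3, and called in 5 of 20 fits that left out 1 mouse), with the summed γδ markers at 19.4 to 46.3 CPM and 10.9 to 29.9 CPM. Il17a, Cd4, Fcer1g, Cd79a, Ly86, Irf8, Pmel, Pecam1 and the T cell gene Trbc2 were not called, with log2 changes from -1.22 for Il17a to 1.66 for Ly86.

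Without αPD-L1, RT gave few calls. The RT mice gave 126 to 3200 cells and 1117826 to 25640264 UMIs each, the fewest in mouse 4. Control mice gave 639 to 3186 cells and 5079475 to 28909606 UMIs. RT against Control called 13 of 12049 genes in edgeR (0.108%), 5 higher and 8 lower, with 1177 genes at an unadjusted p below 0.05. Leaving out RT mouse 4 gave 10 calls. DESeq2 called 28 genes and limma-trend 14. None of the 47 antiviral genes was called by edgeR, DESeq2 or limma-trend, and in each of them 0 had an unadjusted p below 0.05. The median log2 change of the antiviral list was -0.04. Isg15 had a log2 change of -0.23 ± 0.51 and Irf7 of -0.17 ± 0.34, with edgeR adjusted p of 0.96 and 0.948. This contrast shares no mouse with that of RT + αPD-L1 against αPD-L1.

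The difference between the 2 effects of RT, with αPD-L1 minus without it, was called for 103 genes in edgeR (0.855%), 75 higher (0.622%) and 28 lower. An unadjusted p below 0.05 in edgeR was found for 1386 of the 12049 genes. Of the antiviral effectors 18 of 47 were higher, of the nucleic acid sensors 4 of 13, and of the interferon receptors, kinases and factors 3 of 22. DESeq2 called 20, 5 and 4 of these, and limma-trend 1, 0 and 0, with 41, 9 and 7 at an unadjusted p below 0.05. limma-trend called 34 genes in all, 16 higher and 18 lower, and gave 1285 genes an unadjusted p below 0.05. Leaving out single mice moved the edgeR count from 19, without RT mouse 2, to 237, without RT + αPD-L1 mouse 1. Among the named genes that were called, the largest differences were in Rsad2 (4.62), Ifit3b (4.14), Oas2 (3.83), Ifit3 (3.69), Oasl2 (3.63), Ifit1 (3.23), Isg15 (3.22) and Usp18 (2.96), on the log2 scale, with edgeR adjusted p values of 0.0242 to 0.0433. Those of Ifitm3 (4.59), Ifi204 (4.10), Gzmb (2.06) and Ly6a (1.66) were not called (edgeR adjusted p = 0.111, 0.223, 0.534 and 0.319). None of 28 cytotoxic and 8 Ly6 genes passed in edgeR, DESeq2 or limma-trend, with 3 and 1 at an unadjusted p below 0.05 in edgeR.

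**Figure D5:**
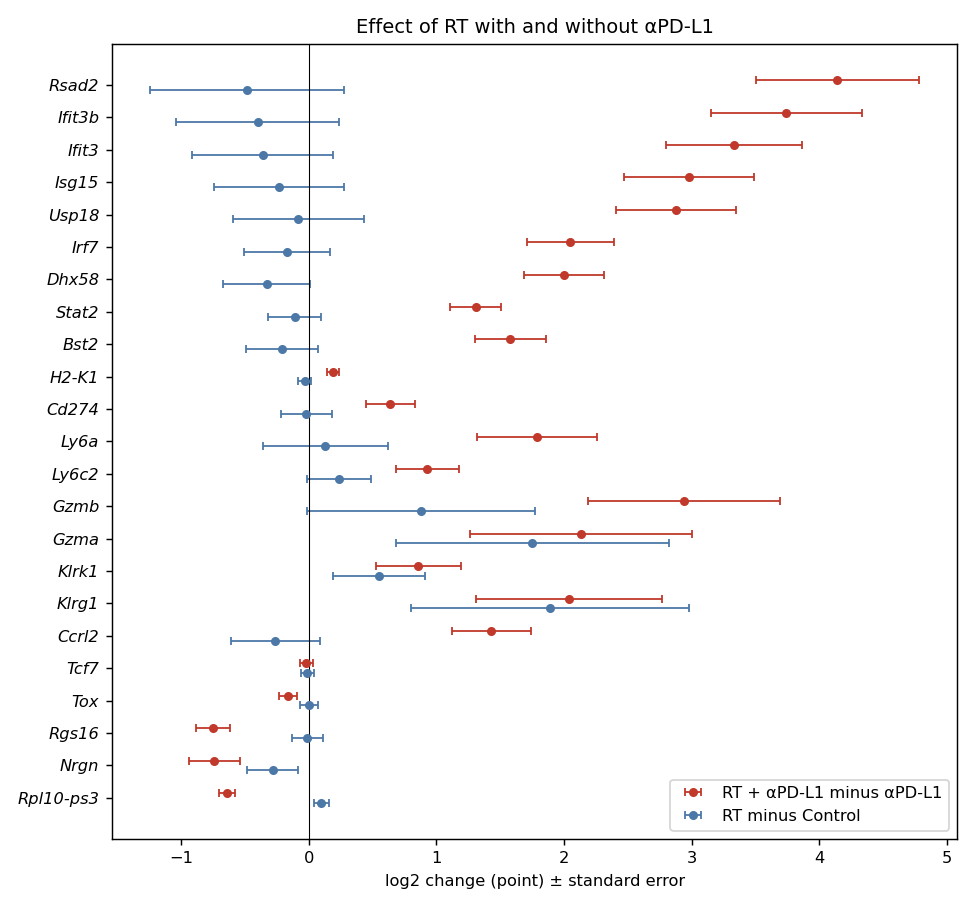
Log2 change ± standard error of 23 genes from the edgeR fit, for RT + αPD-L1 minus αPD-L1 (red) and for RT minus Control (blue). Rsad2 lies at 4.14 and -0.48, whereas Gzma lies at 2.13 and 1.75 with overlapping errors.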

How the data were processed

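CD8+ T cells of 4 treatment groups were profiled by droplet single-cell RNA-seq, with 1 library per group and hashtag antibodies marking 5 mice in each. The deposited matrices hold raw UMI counts per gene or hashtag and barcode. Per the file headers the authors made them with Cell Ranger 6.1.2, and per the labels with the mm10 build. The study's methods name an earlier Cell Ranger version. The labels name a 3′ kit, whereas the hashtags are of a type usually read with 5′ kits, and which was used was not settled.

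Barcodes with 500 to 5000 genes, at most 40000 UMIs and at most 10% mitochondrial UMIs were kept. A mouse was assigned where 1 hashtag lay above the valley of its distribution. This replaced the study's HTODemux (run here with Seurat 5.3.0 as an alternative), with which 98.69 to 100.0% of commonly called cells got the same mouse. Barcodes with several hashtags (7.42 to 8.85%) were removed, and no other doublet caller was run. Barcodes dropped for γδ T cell, B cell or antigen-presenting cell RNA numbered 213 in RT + αPD-L1 and 246 in αPD-L1. The RT + αPD-L1 library held 12039 barcodes, 11131 after the quality limits, and the αPD-L1 library 13369 and 12285.

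Counts were summed per mouse and fitted with edgeR 4.0.16 (filterByExpr, TMM, quasi-likelihood F test, common biological coefficient of variation 0.0892), with all 20 mice sharing 1 estimate of spread and Benjamini-Hochberg adjustment over all genes at 0.05. The standard error of a log2 change was its absolute value divided by the square root of F. DESeq2 1.42.0 and limma 3.58.1 were alternatives, as were RLE factors, no filter, fits on the 10 mice compared, mouse quality weights, HTODemux, no dropped barcodes, at most 1000 cells per mouse, and each mouse left out. The fits on the 10 mice with DESeq2 and limma-trend and the quality weights were chosen after seeing the data. CPM used plain library totals. Exact tests were 2-sided over 252 arrangements (scipy 1.17.1, Python 3.11.15). Shares of cells were thinned to 3000 UMIs and adjusted over 13 tests, 1 of which is not reported here, nor are some of the named genes. The fit was tested on simulated data with the same spread for every gene and group. That test cannot show how the fit behaves where the RT + αPD-L1 mice vary more than the others.

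The comparison, gene lists and key genes were chosen with earlier results of these data known. Named genes were 32 key genes, up to 3 called genes and 1 uncalled gene with the largest changes in each list, the 12 largest rises and 12 largest falls among called genes, and the 8 largest called differences, the last 3 sets with a mean of at least 10 CPM in either group and without predicted genes. Coordinates follow GENCODE on GRCm38. Labels give no separate cultures or cages, so p-values measure the spread between mice of 1 library per group. The 5-mouse groups and the number of UMIs per mouse limit precision, and intervals of shares cover counting error only.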

Additional observations from a re-analysis of the deposited data

Results flagged for a closer look

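In RT + αPD-L1, mouse 3 stood apart from its group in 10 gene levels: Pdcd1 at 65.2, Ifitm3 at 67.3, Gzma at 456.0, Gzmb at 790.8, Prf1 at 40.1, Klrk1 at 65.0, Klrc1 at 84.3, Cxcr3 at 135.8, Cdkn1a at 8.44 and Havcr2 at 15.7 CPM, each the highest of 5. It also had the lowest share of Tcf7 cells, 65.8%, and the highest shares of Gzma and Gzmb cells, 15.7% and 23.2%. In αPD-L1, mouse 2 was apart as the highest for Isg15 (90.9 CPM), Ifit3 (33.4 CPM), Irf7 (92.0 CPM), Gzma (90.2 CPM) and the share of Gzmb cells (3.73%), and mouse 1 for the share of Tcf7 cells (75.5%). These are 19 of 90 groups tested by Dixon's gap, a test that chance alone passes in about 1 of 20 groups of normally distributed values. The 90 groups reuse the same mice, and genes such as Gzmb enter as both level and share. The groups are therefore not independent, and the 19 cannot be set against that rate.

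The difference between the effects of RT with and without αPD-L1 was called in edgeR for 103 of all 12049 genes (0.855%). With single mice left out, that count ranged from 19 to 237. Each treatment was 1 library, so this difference cannot be told from one between libraries. Named genes were picked partly for large rises, large falls or large called differences, so their count cannot be set against that share. Of the named genes, 18 were called by the edgeR test of the difference itself. On the log2 scale the differences were 3.22 for Isg15, 4.62 for Rsad2, 3.69 for Ifit3, 2.22 for Irf7, 2.96 for Usp18, 1.42 for Stat2, 2.33 for Dhx58, 1.85 for Tlr7 and 4.14 for Ifit3b. They were 2.21 for Slfn5, 2.43 for Gbp10, 1.80 for Bst2, 3.83 for Oas2, 3.63 for Oasl2 and 3.23 for Ifit1. Those of Rpl10-ps3, Foxd2os and Dnah8 were -0.73, -0.51 and -0.62.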

How the results depend on the processing

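The count of 294 called genes became 131 with limma-trend, 1 with edgeR and 1 with limma-trend on the 10 mice alone, and 148 with DESeq2 on the 10 mice. It ranged from 172, without RT + αPD-L1 mouse 3, to 397, without mouse 1, when single mice were left out. The 103 genes of the difference between the RT effects became 34 with limma-trend (16 higher and 18 lower, against 75 and 28), 63 with HTODemux and 51 with at most 1000 cells per mouse, and ranged from 19 to 237 with mice left out. The 441 genes in cells without granzyme UMIs ranged from 188, without RT + αPD-L1 mouse 3, to 614, without αPD-L1 mouse 3, and the 306 in Tcf7 cells from 166, without RT + αPD-L1 mouse 3, to 413, without mouse 1 of that group. The cause of these moves was not tested, except that fits on the 10 mice have fewer samples. RLE factors changed no call among the named genes.

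Thinned to 1500 UMIs, no share passed: the differences were 13.8 points for Ly6a, 3.24 for Gzma, 5.36 for Gzmb, 21.68 for Isg15 and 5.61 for Tcf7 with Ly6a. With mice left out they ranged from 11.35 to 20.75, 2.4 to 5.49, 4.36 to 8.75, 21.76 to 35.09 and 7.91 to 13.58 points, and none passed when an αPD-L1 mouse was left out or without RT + αPD-L1 mouse 2 or 3. The Tcf7 share ranged from -1.06 to 1.07 and Mki67 from -1.53 to 0.39 points.

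Changes of sign were read for the named genes only, and none of those that were called changed sign. Among uncalled genes, limma-trend gave Prf1 -0.02 with all mice and -0.02 with the 10, and with quality weights Prf1 was -0.12, Tcf7 0.0, Havcr2 -0.18 and Irf8 -0.06. With mice left out the log2 changes ranged from -0.08 to 0.63 for Pdcd1, -0.2 to 0.14 for Prf1, -0.05 to 0.04 for Tcf7, -0.0 to 0.18 for Cxcr3, -0.16 to 1.21 for Cdkn1a, -0.72 to 0.86 for Havcr2, -0.25 to 0.06 for Lag3, -0.09 to 1.21 for Ifitm1, -0.3 to 2.21 for S1pr5 and -0.67 to 0.17 for Pmel.

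No paired analysis was possible because the labels give no replicate numbers that tie mice of different libraries together.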
